A study of Mus musculus with 4 samples.

Results

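The genes described here encode receptors, ligands and targets of NOTCH signalling. They are the receptor genes Notch1, Notch2 and Notch3, the ligand genes Jag1, Jag2 and Dll1, and the target genes Hes1, Hey1, Hey2 and Heyl. All probes whose gene name on the array equals 1 of these symbols were taken, which gave 13 probes for 10 genes among 39429 probes for 29924 gene names. All 10 genes and 12 of the 13 probes were measured well enough to be tested, in a test over 22461 genes. The samples were ureters of wildtype NMRI mouse embryos, dissected at E12.5, cultured for 18 h on membranes without serum, and pooled before RNA extraction. Treated ureters received 10 µM IWP-2, a compound that blocks PORCN and with it the secretion of WNT ligands, and control ureters received the solvent DMSO at 2:1000. Each of 4 two-colour arrays held 1 treated and 1 control pool, with the treated RNA in red (AlexaFluor647) on arrays 1 and 3 and in green (AlexaFluor555) on arrays 2 and 4. Each pool contains epithelium, mesenchyme and every other cell type of the explant. The compound was added to the culture of whole explants, and its effect was not measured by cell type.

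NOTCH receptors are activated by ligands of the JAG and DLL families on neighbouring cells. Ligand binding leads to cleavage of the receptor by ADAM proteases and by γ-secretase, after which the intracellular part enters the nucleus, binds RBPJ and switches on genes such as those of the HES and HEY families, which encode transcriptional repressors. In the ureteric mesenchyme the pathway takes part in smooth muscle differentiation, and in blood vessels it acts in endothelial cells and in the mural cells around them.

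Gene spots had a median raw intensity of 368 to 711 in the control channels and 385 to 694 in the treated ones, over a local background of 28 to 77 (medians per array). All markers of ureteric epithelium and of mesenchyme passed the filter on background. So did those of endothelium, pericytes, smooth muscle, blood, macrophages, glia and nephron progenitors. The macrophage list also held Emr1, an older symbol of Adgre1 that is not a name on the array, and Adgre1 itself passed the filter. Since most genes pass this filter, it shows that these RNAs were detected and does not tell ureter from another tissue. Axin2, a direct WNT target used here as the check of the compound, fell from a mean signal of 596 to 192, a log2 ratio of IWP-2 over control of -1.56 ± 0.09 (SD, n = 4, limma adjusted p = 1.23e-05).

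To find out which NOTCH genes responded to the loss of WNT ligands, their log2 ratios were tested with limma together with all other genes. With IWP-2, Hey2 was downregulated to about 52.5% of the control level and Heyl to 80.4%, whereas Jag2 was upregulated to 131% and Hes1 to 119%. The receptor genes Notch1, Notch2 and Notch3, the ligand genes Jag1 and Dll1, and the target gene Hey1 did not pass the test. In total 4 of the 10 genes were called at an adjusted p under 0.05, against 33.1% of all genes tested, and this share is near the background. By direction, 2 were lower, against 15.0% of all genes, and 2 were higher, against 18.1%. The median log2 ratio was 0.03 over the 10 genes and 0.00 over all genes tested. What set one gene apart was size. Hey2 alone of the 10 was called with a change of more than 0.5 on the log2 scale, against 4.13% of all genes tested. P-values rest on the spread between these 4 pairs of pools that is left after a dye term per gene. Limma draws the variance of each gene toward that of all genes tested.

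**Figure D1:**
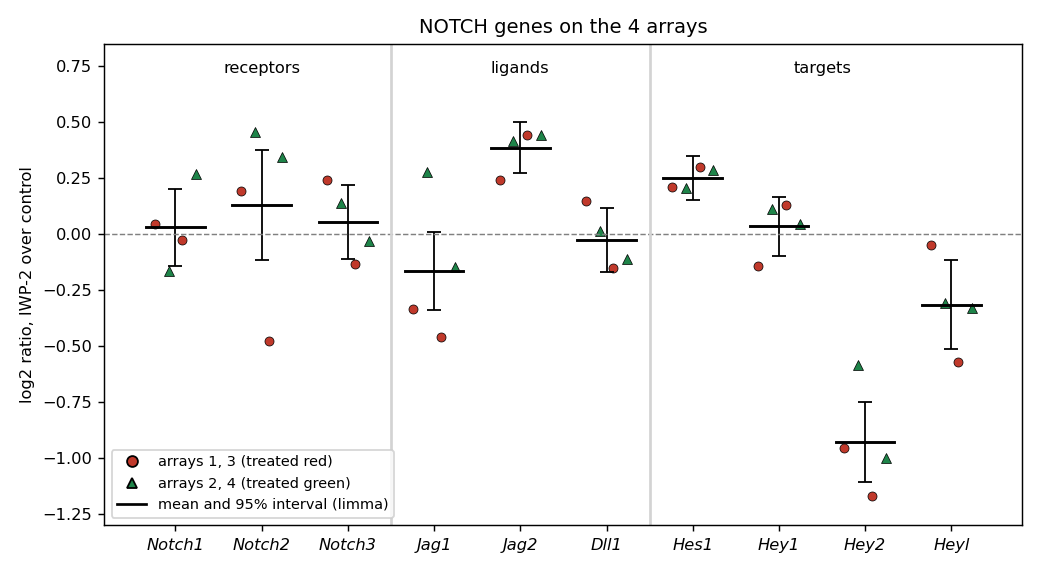
Log2 ratio of IWP-2 over control for the 10 NOTCH genes on each of the 4 arrays, with circles for arrays with the treated RNA in red, triangles for arrays with it in green, and a bar for the mean with its 95% interval from limma. All 4 points of Hey2 lie between -1.17 and -0.59, those of Jag2 and Hes1 lie above 0, and those of Notch2 and Jag1 lie on both sides of 0.

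Hey2 encodes a basic helix-loop-helix repressor known from the heart and from vascular smooth muscle. Its probe lies at chr10:30552729-30552788 on the minus strand (mm9), and is shown by its first 30 bases because all Hey2 values rest on this single probe.
Hey2 probe: ccagaggctcattgacaccaactcaaaaac
In the control pools of arrays 1 to 4 the processed signal of Hey2 was 209, 193, 272 and 260. In the treated pools it was 96.4, 126, 111 and 124. The highest treated value was below the lowest control value, so that the groups did not overlap. The log2 ratios were -0.96, -0.59, -1.17 and -0.999, with a mean of -0.93 ± 0.25 (SD, n = 4), a 95% interval of -1.11 to -0.75 and a limma adjusted p = 0.000443. The size of this change was above that of 98.9% of the genes tested. The change had the same direction with both dye orders, with means of -1.06 on arrays 1 and 3 and -0.79 on arrays 2 and 4.

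The letters of the Hey2 promoter could be compared only with those of receptor and ligand genes among the 10. RefSeq promoter windows of 300 bases, of which 250 lie before the start of transcription and 50 after it, were given for 7 of the 10 genes in 8 windows (GRCm38.p6). The table used here has none for Hes1, Hey1 and Heyl, so that Hey2 was not compared with the other target genes of the 10. The core letters bound by RBPJ, TGGGAA on either strand, occurred in 1 of the 8 windows, that of Hey2, and in 25.6% of all 32851 promoters. The longer form CGTGGGAA, which contains the core, was found in 0.734% of all promoters and likewise in the window of Hey2 alone among the 8. The Hey2 window holds it at 2 places, on the opposite strand with its first letter 207 bases before the start and on the gene's strand from 5 bases before the start across it. Among the target genes outside the 10, windows were given for Hes5, Hes6, Hes7 and Nrarp, and these were looked at after their values had been seen. The Hes5 window holds the core at 2 places, 226 and 82 bases before the start, and not the longer form. The Hes7 window also holds the core, at 1 place 180 bases before the start, so that the core letters occurred both beside a gene that fell (Hes5) and beside one that did not pass the test (Hes7). Both promoters are printed from 250 bases before the start to 10 bases after it, with the matches in capitals, as chr10:30842774-30843033 on the minus strand for Hey2 and chr4:154960673-154960932 on the plus strand for Hes5 (GRCm38.p6).
Hey2 promoter: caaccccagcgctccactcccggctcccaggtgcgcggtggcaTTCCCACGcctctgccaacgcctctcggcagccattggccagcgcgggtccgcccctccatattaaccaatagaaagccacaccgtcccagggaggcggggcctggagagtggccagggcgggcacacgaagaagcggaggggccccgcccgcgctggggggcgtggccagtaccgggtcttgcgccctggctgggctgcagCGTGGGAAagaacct
Hes5 promoter: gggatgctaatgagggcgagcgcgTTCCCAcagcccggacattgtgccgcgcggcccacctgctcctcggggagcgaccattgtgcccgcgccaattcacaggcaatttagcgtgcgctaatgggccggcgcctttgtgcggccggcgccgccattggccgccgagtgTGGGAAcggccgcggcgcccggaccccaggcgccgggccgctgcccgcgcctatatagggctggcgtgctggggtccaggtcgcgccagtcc
The letters CTTTGAA of TCF and LEF factors, the nuclear partners of β-catenin, occurred in 0 of the 8 windows and in 5.14% of all promoters, and the E-box CACGTG in 0 of 8 and in 7.15%. The letters CACGCG, bound by HES and HEY factors themselves, were present in 4 of the 8 windows, those of Jag1, Jag2, Notch2 and Dll1, against 9.27% of all promoters. These are matches of letters in a window, and no binding was measured.

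Heyl encodes a further HEY repressor, known from mural cells. Its probe lies at chr4:122926975-122927034 on the plus strand (mm9).
Heyl probe: aatcattttcttcaaggtctttgcccttct
The control pools had processed signals of 436, 432, 573 and 575, and the treated pools 421, 350, 386 and 459. The treated value was below the control value on each array, but the groups overlapped. The log2 ratios of -0.05, -0.31, -0.57 and -0.33 gave a mean of -0.31 ± 0.21 (SD, n = 4), a 95% interval of -0.51 to -0.12 and a limma adjusted p = 0.0291. The fall was hardly visible on array 1 and largest on array 3. Without array 3 the mean was -0.18 and the call was lost, with an adjusted p = 0.0507 in a range of 0.00245 to 0.147 over the alternatives.

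Hes1, a HES gene widely used as a readout of NOTCH activity, went the other way. Its probe lies at chr16:30067820-30067879 on the plus strand (mm9).
Hes1 probe: ttaaaatatcttcctttggggaagtttatt
Its control signals were 583, 680, 733 and 715, and its treated signals 683, 784, 925 and 884. Each treated pool was above its own control pool, while the groups overlapped. The log2 ratios of 0.21, 0.21, 0.30 and 0.29 were close to each other, with a mean of 0.25 ± 0.05 (SD, n = 4), a 95% interval of 0.15 to 0.35 and a limma adjusted p = 0.0056.

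Hey1, the third HEY gene and the one nearest to Hey2 in structure, did not pass the test. Its control signals were 5086, 4256, 5251 and 5809, and its treated signals 4741, 4472, 5932 and 5857. The groups overlapped, with 2 treated pools above every control pool, and array 1 fell while the other arrays rose. The mean log2 ratio was 0.03 ± 0.12 (SD, n = 4) with a 95% interval of -0.10 to 0.17 (limma adjusted p = 0.66), which does not reach the size of the change of Heyl.

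The response thus differed among the target genes on the same arrays. The log2 ratio of Hey2 was below that of Hey1 on 4 of 4 arrays, by 0.70 to 1.30, and below that of Heyl on 4 of 4 arrays, by 0.28 to 0.91. Over 7 pairs of genes within the receptor, JAG and HEY families, a two-sided exact permutation test over 4 arrays cannot go below p = 0.125, and both pairs reached this value (adjusted over the 7 pairs, p = 0.292). Heyl was below Hey1 on 3 of 4 arrays (exact p = 0.25, adjusted p = 0.438).

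**Figure D2:**
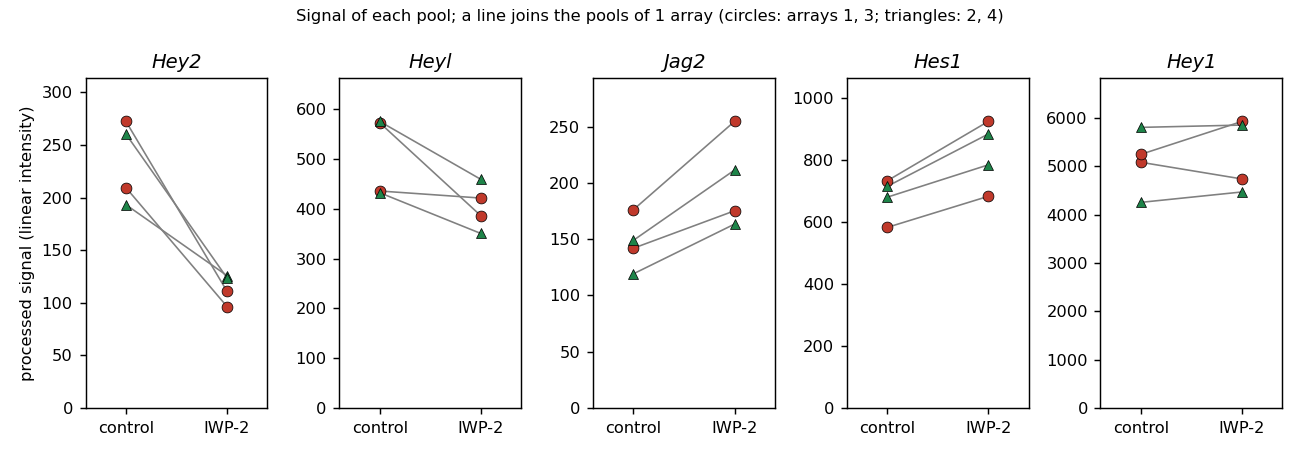
Processed signal, on a linear scale from 0, of the 4 control and the 4 IWP-2 pools for Hey2, Heyl, Jag2, Hes1 and Hey1, with a line between both pools of an array. The Hey2 lines all fall and end below every control value, the Jag2 and Hes1 lines all rise with overlapping groups, and the Hey1 lines are nearly flat.

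Among the ligand genes, Jag2, which encodes a transmembrane ligand of the receptors, was upregulated. Its probe lies at chr12:114146887-114146946 on the minus strand (mm9).
Jag2 probe: ttgtataaattattcaacggctgtcaggcg
The control signals were 142, 119, 176 and 149, and the treated signals 175, 163, 255 and 211. The treated pool was higher on each array, and the groups overlapped at 163 to 176. The log2 ratios of 0.24, 0.42, 0.44 and 0.44 gave a mean of 0.39 ± 0.10 (SD, n = 4), a 95% interval of 0.27 to 0.50 and a limma adjusted p = 0.00203.

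Jag1, which encodes the JAG ligand with broad mesenchymal and vascular roles, did not pass the test and was the least uniform of the ligand genes. The probe is at chr2:136907433-136907492 on the minus strand (mm9), with control signals of 761, 590, 923 and 928 and treated signals of 605, 714, 680 and 842. The log2 ratios of -0.34, 0.28, -0.46 and -0.15 separated by the dye order, with means of -0.40 on arrays 1 and 3 and 0.07 on arrays 2 and 4. The mean was -0.17 ± 0.32 (SD, n = 4) with a 95% interval of -0.34 to 0.01 (limma adjusted p = 0.129). Without array 2, the only array on which Jag1 was higher, the mean was -0.27 and the gene passed the test with an adjusted p = 0.0114, in a range up to 0.516 over the alternatives. Jag2 exceeded Jag1 on 4 of 4 arrays, by a mean log2 difference of 0.55 ± 0.31 (SD), at the smallest exact p of this design, 0.125 (adjusted p = 0.292).

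Dll1, the gene of a delta-like ligand, had control signals of 183 to 281 and treated signals of 187 to 257. Its mean log2 ratio was -0.03 ± 0.14 (SD, n = 4) with a 95% interval of -0.17 to 0.12 (limma adjusted p = 0.774). A second Dll1 probe was not well above background in any of the 8 channels and was not tested.

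The receptor genes did not pass the test. Notch1 had control signals of 68.8 to 90.0 and treated signals of 65.4 to 96.7, with a mean log2 ratio of 0.03 ± 0.18 (SD, n = 4) and a 95% interval of -0.14 to 0.20 (limma adjusted p = 0.774). The other Notch1 probe gave -0.07 ± 0.12. Notch3, the receptor gene of mural cells, had control signals of 2353, 3277, 4237 and 3841 and treated signals of 2823, 3535, 3958 and 3720, a mean of 0.06 ± 0.17 and a 95% interval of -0.11 to 0.22 (adjusted p = 0.577). For both genes, 2 arrays were above 0 and 2 below.

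Notch2 was the receptor gene with the widest spread. Its control signals were 1864, 1726, 2915 and 2199, and its treated signals 2103, 2368, 2111 and 2807. Array 3 thus fell, at a log2 ratio of -0.48, and the others rose, at 0.19, 0.46 and 0.34. The mean was 0.13 ± 0.42 (SD, n = 4) with a 95% interval of -0.12 to 0.38 (limma adjusted p = 0.375). The means of the dye orders were -0.14 on arrays 1 and 3, of which only array 3 fell, and 0.40 on arrays 2 and 4. Without array 3 the mean was 0.30 and the gene was called higher with an adjusted p = 0.0138, in a range up to 0.664 over the alternatives. A dim second probe of Notch2 gave -0.02 ± 0.11 (adjusted p = 0.716). The pairwise differences between receptor genes had exact p of 0.625 to 0.875. None of the intervals of the 3 receptor genes reached a change of 0.5 on the log2 scale.

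Other genes of the pathway were read by their function in it. The list holds 53 genes, of which 52 were on the array by name and 51 were tested. Of these, 7 were lower and 12 higher with IWP-2, 32 did not pass the test, and the median log2 ratio was 0.05. Lower were 13.7% of the list against 15.0% of all genes tested, and higher 23.5% against 18.1%, together 37.3% against 33.1%, so that the list as a whole was near the background. The counts of the groups below are small, and each is to be read against these shares of all genes. The values of those that did not pass lay between -0.19 and 0.16. Among other receptor and ligand genes, 0 of 6 were lower and 3 were higher. Dlk1, an imprinted gene of a non-canonical ligand that lacks the domain by which DLL and JAG proteins activate the receptor, rose the most. Its control signals of 3638, 3561, 5571 and 5461 became 5248, 5344, 7632 and 7721, a mean log2 ratio of 0.52 ± 0.08 (SD, n = 4, limma adjusted p = 0.000469), and the treated pool was higher on each array. A second Dlk1 probe gave 0.34 ± 0.07. Dll3, a ligand gene whose product acts within the cell, rose by 0.32 ± 0.16, and Notch4, the receptor gene of endothelium, by 0.24 ± 0.07 (adjusted p = 0.0079 and 0.00828). Of 8 endothelial markers, 4 were higher and 4 did not pass the test, with a median of 0.14, as given below. The part of endothelial cells in the rise of Notch4 was not tested.

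**Figure D3:**
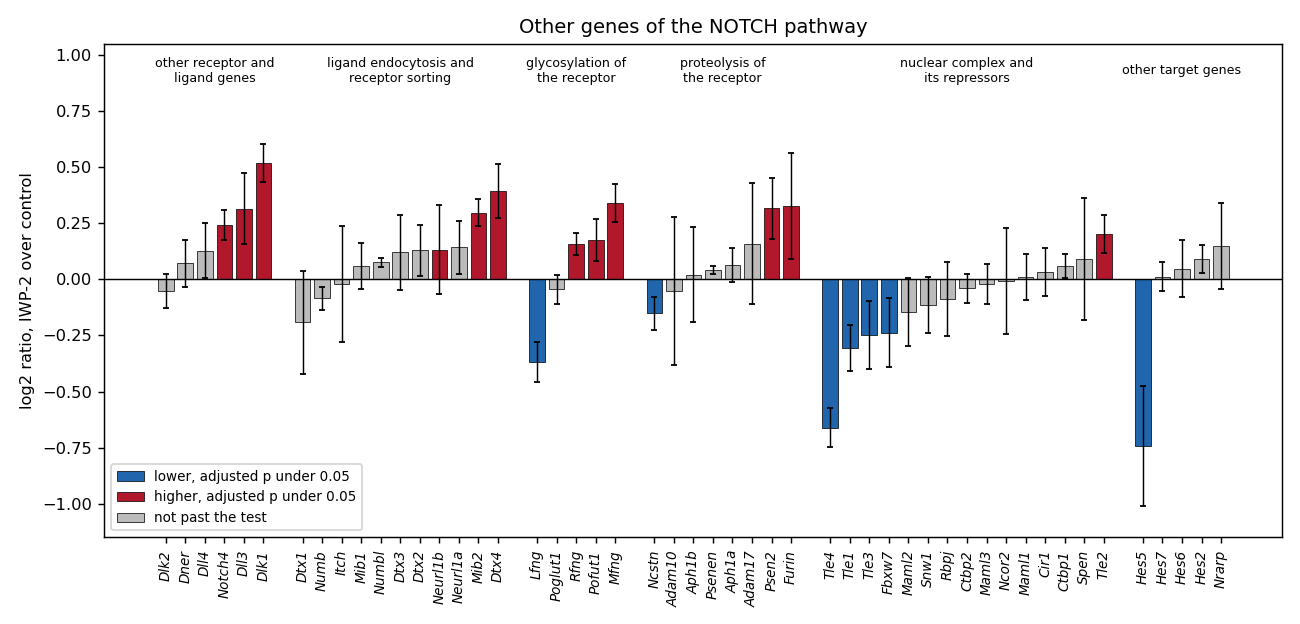
Mean log2 ratio of IWP-2 over control, with the SD between 4 arrays, for 50 of the 51 other genes of the NOTCH pathway that were tested, grouped by function. Blue bars were lower and red bars higher at a limma adjusted p under 0.05, 7 and 12 genes, with Hes5 and Tle4 reaching -0.74 and -0.66 and Dlk1 0.52.

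Of the genes of ligand endocytosis and receptor sorting, 3 of 11 were higher, with Dtx4 at 0.40 ± 0.12 and the ubiquitin ligase gene Mib2 at 0.30 ± 0.06. The third, Neurl1b, at 0.13 ± 0.20, was above 0 on only 2 of the 4 arrays. Its call was lost in a fit without the dye term (limma adjusted p = 0.253). Of the genes of receptor glycosylation, 3 of 5 were higher and 1 was lower. The fringe genes, whose products modify the receptor and thereby shift its preference between ligands, went in different directions. Mfng was higher at 0.34 ± 0.09 and Rfng at 0.16 ± 0.05, while Lfng was lower at -0.37 ± 0.09 (limma adjusted p = 0.00128). The Lfng signal was only 18.0 in control and 9.55 with IWP-2, without overlap of the groups, and the size of its fall depended on the background correction, being -0.91 with processed signals. Pofut1, which adds the O-fucose that fringe proteins extend, was higher at 0.17 ± 0.09. Neither the Rfng nor the Pofut1 call was shared by the other probe of the gene, at 0.01 ± 0.13 (adjusted p = 0.853) and 0.03 ± 0.07 (adjusted p = 0.608). Averaged over their probes both genes missed the threshold, at 0.09 (adjusted p = 0.134) and 0.10 (adjusted p = 0.0841), and each lost its call in 6 of 15 alternatives. Of the protease genes, Furin (0.33 ± 0.24) and the presenilin gene Psen2 (0.32 ± 0.13) were higher, and the dim γ-secretase subunit gene Ncstn (-0.15 ± 0.07) was lower, out of 9 tested. Furin stood at 0.50 and 0.56 on arrays 1 and 4 but at 0.17 and 0.08 on arrays 2 and 3. It lost its call in 4 of 15 alternatives. Adam10 and Adam17 did not pass the test.

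Of the 15 nuclear genes, 4 were lower and 1 was higher, and neither Rbpj nor the mastermind coactivator genes Maml1, Maml2 and Maml3 passed the test. Tle4 encodes a Groucho co-repressor, which serves HES and HEY proteins and also TCF and LEF factors. Its control signals of 552, 572, 725 and 616 fell to 357, 333, 446 and 417, so that the groups did not overlap. The mean log2 ratio was -0.66 ± 0.09 (SD, n = 4, limma adjusted p = 0.000296), and a second probe gave -0.78 ± 0.10. The paralogs Tle1, at -0.31 ± 0.10, and Tle3, at -0.25 ± 0.15, were lower as well, whereas Tle2 was higher at 0.20 ± 0.09. Fbxw7, which marks the NOTCH intracellular part for degradation, was lower at -0.24 ± 0.15.

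Of the other target genes, 1 of 5 tested was called. Hes5, a target bound by RBPJ in many tissues, had low control signals of 27.5, 54.6, 36.4 and 34.9 and treated signals of 8.60, 17.2, 22.2 and 15.8. The groups did not overlap, and every channel was well above background. The mean log2 ratio was -0.74 ± 0.27 (SD, n = 4) with a 95% interval of -0.96 to -0.53 (limma adjusted p = 0.00197). This understates the change in signal, because the offset of 50 added before taking logarithms draws dim probes toward 0. With processed signals the value was -1.29. Hes2, Hes6, Hes7 and Nrarp, the last being a feedback inhibitor of the NOTCH complex, did not pass the test, with values between 0.01 and 0.15.

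Markers of several cell types moved on the same arrays, and in such pools fewer cells of a type and less RNA per cell cannot be told apart. The counts of the marker lists, here and below, are small. They are to be read against 15.0% lower and 18.1% higher among all genes tested. Beside the falls of Hey2 and Heyl, 7 of 7 smooth muscle markers were lower, from -0.98 to -0.18, with a median of -0.58 and a summed signal of 7524 to 14058 in control and 4827 to 8066 in treated pools. Of 5 pericyte markers, 2 were lower and 1 higher, with sums of 5772 to 7379 and 4672 to 6674. Of 8 endothelial markers, 0 were lower and 4 higher, with a median of 0.14 and sums of 12385 to 17382 and 13960 to 19821. The endothelial median was above 0 on each array, at 0.11 to 0.19.

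Beside the rises of Jag2 and Hes1, 7 of 7 markers of the ureteric epithelium were higher, from 0.24 to 0.34, with a median of 0.30 and sums of 40882 to 54041 in control and 46388 to 67147 in treated pools. The rise of Hes1, at 0.25, lies within this range, and that of Jag2, at 0.39, lies above it. Hes1 also lies within the range of every other marker list except smooth muscle. Jag2 lies within those of the mesenchymal, nephron progenitor, glial and macrophage markers. Of the nephron progenitor markers, 5 of 6 were higher and 1 was lower, from -0.96 to 1.14. Their median was 0.22, with sums of 11242 to 14125 and 12188 to 16070. Glial markers were higher for 3 of 6 (median 0.26, sums of 7306 to 12397 and 9160 to 14701), blood markers for 4 of 6 (median 0.27, sums of 65048 to 102564 and 87913 to 122001) and macrophage markers for 4 of 6 (median 0.18, sums of 2625 to 4232 and 3011 to 4723). The called blood marker Hbb-y was 0.61 and 0.73 on arrays 1 and 3. On arrays 2 and 4 Hbb-y was -0.10 and -0.14, and Hba-a1, also called, was -0.03 on array 2. Of 6 mesenchymal markers, 1 was lower, at -0.74, and 1 higher, at 0.80. Their median was 0.02, with sums of 84239 to 116098 and 90734 to 118138. The part of these shifts in the changes of the NOTCH genes was not tested.

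The calls were then followed through 15 other ways of processing the arrays. Hey2 passed the test in 15 of 15, with log2 ratios of -1.05 to -0.83 and a highest adjusted p of 0.0294. Jag2 and Hes1 passed in 14 of 15, at 0.34 to 0.46 and 0.23 to 0.29, and Heyl in 12 of 15, at -0.45 to -0.18. Of the pathway list, Tle4, Dlk1, Mib2 and Mfng passed in 15 of 15.

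**Figure D4:**
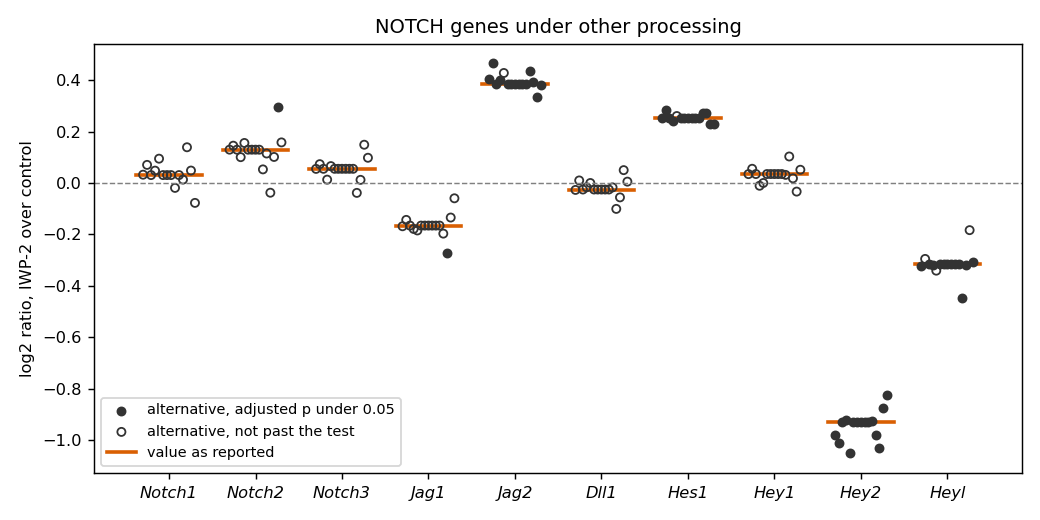
Log2 ratio of IWP-2 over control for the 10 NOTCH genes under 15 alternative settings (14 for Notch1), filled where the limma adjusted p was under 0.05 and open where it was not, with a bar at the value as reported. Hey2 is filled throughout and far below 0, Jag2 and Hes1 have 1 open point each, and Heyl has 3.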

How the data were processed

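The 4 arrays were analysed from 1 file each of Agilent Feature Extraction 10.7.3.1, per the labels, with linear intensities of both dyes per spot. The deposited log10 ratios served as a check of dye direction (r = 0.987 on array 1). A deposited table of signed fold changes per array, a score made by the authors, was an alternative. Per the authors' methods, normalised data were filtered by intensity and fold change, without a test.

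Mean signals were corrected with normexp (offset 50), normalised by loess (span 0.3) in limma 3.58.1 under R 4.3.3, and averaged per probe without control spots and outlier-flagged spots (3.01 to 3.38%). The brightest probe represented a gene. Genes well above background in over 0.5 of the spots of one condition on all 4 arrays were tested (lmFit, eBayes, dye term, two-sided, Benjamini-Hochberg over 22461 genes, threshold 0.05), and intervals are 95% limits of that fit. Code was tested on simulated data. Signals in the text are Feature Extraction's processed intensities, already background-subtracted and dye-normalised, and are not compared between probes. The summed marker signals add different probes, so that the brightest probes of a list weigh most. They do not measure the amount of a cell type. The SD between arrays contains the dye effect. The dye term itself passed the adjusted threshold for 0 of the 22461 genes. Precision is limited by the 4 arrays, which all lay on 1 slide and were scanned together. Probe positions are those of the file (mm9), and exons and UTRs are not assigned here. Promoters are RefSeq's (GRCm38.p6), and all 10 symbols matched RefSeq.

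The genes, lists and motifs were chosen with earlier results of these data known. Named were all NOTCH members with each probe, every called gene of the pathway list, and Axin2. Some pathway genes that were not called are named by function, and 1 gene of the list is counted but not reported here.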

Additional observations from a re-analysis of the deposited data

Results flagged for a closer look

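On 3 of 32 items examined, 1 of the 4 arrays stood apart from the others, and chance alone gives about 1 in 20. For Jag2, array 1 at 0.24 lay below the others at 0.42 to 0.44, a gap of 0.864 of the range. For Dll3, array 4 at 0.08 lay below the others at 0.38 to 0.40 (0.935 of the range). For Psen2, array 3 at 0.52 lay above the others at 0.23 to 0.28 (0.843 of the range). All values are log2 ratios of IWP-2 over control, and the direction was the same on 4 of 4 arrays for each of these genes.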

How the results depend on the processing

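Among 15 alternatives none reversed a called gene. Of the 10 NOTCH genes, 2 were lower as reported, 1 with processed signals and 1 with the series table of fold changes, and 1 (without array 3) to 3 (without array 2) when 1 array was left out. Of the 2 that were higher, 0 passed with the series table, where 2 had an unadjusted limma p under 0.05, and 2 to 3 when 1 array was left out. In the pathway list the 7 lower genes became 2 with the series table, 12 with the 8 channels as separate samples, 4 with a mean processed signal over 100 and 4 (without array 3) to 7 when 1 array was left out. The 12 higher genes became 6 with the series table. The table is rounded to 1 decimal, and it called 17.3% of all genes. Heyl lost its call with processed signals (-0.30, adjusted p = 0.0872), the series table (-0.34, 0.147) and without array 3, and Jag2 (0.43, 0.0764) and Hes1 (0.26, 0.0603) with the series table. The causes were not tested. Of the 19 pathway calls, 4 were kept in all alternatives, 8 were lost in 1 and 7 in 2 or more, with Ncstn and Neurl1b lost in 8. Over all genes tested the median log2 ratio was -0.01 to 0.02 under these settings. Each log2 ratio already pairs both pools of an array, and with 1 group of ratios there is no further replicate block to fit. Slide and scan as a block were not run, since all arrays share them. Dim probes, such as those of Lfng, Ncstn and Hes5, are limited by their low signal, although every channel of these was well above background.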
